A study of Homo sapiens with 33 samples.

Results

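The genes described here encode the proteins of the mitochondrial ribosome. They were taken by symbol, MRPL or MRPS followed by a number with an optional A or B, from probe sets of the Affymetrix Human Transcriptome Array 2.0 that carry 1 gene symbol, and 73 of the 22465 genes measured met this rule. Of these, 48 are named for the large subunit and 25 for the small subunit. Where a symbol had several probe sets the brightest over all 33 arrays was kept, which concerned MRPS14 and MRPS18B. The remaining 71 members have 1 probe set each. RefSeq lists 76 protein-coding genes with such symbols. MRPL30, MRPS16 and MRPS6 share their probe sets with a neighbouring gene and were not analysed here.

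The study asked how urothelial carcinoma cells become resistant to PD173074, an inhibitor of fibroblast growth factor receptors (FGFRs). RT112 and RT4 are established human urothelial carcinoma cell lines that carry an FGFR3-TACC3 gene fusion, and this holds for all groups below. The RT112 arrays cover the resistant derivatives R1 and R3 cultured in 1 µM PD173074, R2 cultured in 2 µM, each of these derivatives 4 to 6 passages after the drug was withdrawn, parental RT112 treated with PD173074 for 24 h, and untreated parental RT112. The RT4 arrays cover the derivative RT4 R1 in 1 µM PD173074, the same derivative 4 to 6 passages out of drug, and untreated parental RT4. Each of these 11 groups has 3 arrays (24 of RT112 and 9 of RT4). The labels of the 24 h arrays give no dose, and parental RT112 treated for 24 h for immunoblots received 1 µM. Each derivative is 1 selected line, and R3 is described in the study as a mixed population that carries an HRAS mutation. The labels do not say whether replicates were separate cultures, so that p-values measure only the spread between these arrays, which may be technical.

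Mitochondria hold their own ribosome, which translates the few messenger RNAs of mitochondrial DNA, all of them for subunits of the respiratory chain and ATP synthase. Its ribosomal RNAs come from mitochondrial DNA, whereas all of its proteins are encoded in the nucleus, made in the cytosol and imported. Part of these proteins have counterparts in bacterial ribosomes and part are found only in mitochondria.

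All levels are deposited log2 signals, and a difference of 1 on this scale is a 2-fold change. A gene is said to rise or fall where its adjusted p from limma (Benjamini-Hochberg, over the 22465 genes) was under 0.01. Array medians lay between 4.86 and 5.08, signals were not tested against background, and a difference that starts or ends near these medians is a lower limit. In whole cultures, fewer cells of a type and less RNA per cell cannot be told apart. Of 18 urothelial and epithelial markers, 16 averaged at least 8.79 in parental RT112, with KRT20 (5.47) and UPK3A (4.82) below. In parental RT4, 14 averaged at least 8.19, with KRT13 (7.23), KRT5 (6.94), UPK3A (6.05) and KRT20 (5.41) below. Of 5 immune markers, PTPRC, CD3E, CD14 and LYZ averaged 3.91 to 4.85 in parental RT112 and 4.04 to 4.65 in parental RT4, whereas CD68, a lysosomal protein abundant in macrophages, averaged 8.93 ± 0.14 and 8.25 ± 0.07 in these lines (SD, n = 3 each). Over the 33 arrays, the correlation of an array with the mean of the other two of its group was lowest for RT112 R1 in drug replicate 3 (r = 0.9791), RT4 parental replicate 1 (0.9823) and RT112 R1 in drug replicate 2 (0.9863), and no 2 arrays of a group held identical values.

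Promoters of members that carry the results below are shown first, since the genes are scattered over the genome and a shared promoter sequence is a property that the choice of members did not use. RefSeq promoters (GRCh38.p14, 250 bases before to 50 after the start) were matched by symbol for 65 of the 73 members. A set of 4 short motifs was searched on both strands, namely the core of the YY1 motif (AAGATGGC), of the ETS motif (CCGGAAGT), of the NRF1 motif (GCGCATGC) and the E-box CACGTG bound by MYC. No motif is contained in another. The YY1 core stood in 20 of the 65 members (30.8%), against 3.91% of 15842 protein-coding promoters. The ETS core was in 11 members (16.9%, against 6.19%), the NRF1 core in 5 (7.69%, against 4.26%) and the E-box in 5 (7.69%, against 8.88%). No match to any of the 4 motifs was found in 36 members, which says only that these letters are not in this window. Of the 20 members with a YY1 core, 15 had it after the start of transcription on the sense strand, with its first base 7 to 36 bases downstream. Stretches of 70 bases before to 30 bases after the start follow, 5′ to 3′ on the strand of the gene, with motif matches in capitals. The first 3 hold the YY1 core, the next 3 the ETS core (in MRPS34 on the other strand), and MRPL12 and MRPL39, whose differences were among the largest, hold none of the 4.
MRPL42 (chr12:93467444-93467543, + strand): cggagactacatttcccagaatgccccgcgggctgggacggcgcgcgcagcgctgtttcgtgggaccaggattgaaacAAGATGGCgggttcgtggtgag
MRPS27 (chr5:72320211-72320310, - strand): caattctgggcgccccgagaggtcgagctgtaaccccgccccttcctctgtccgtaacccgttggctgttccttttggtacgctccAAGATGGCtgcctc
MRPS10 (chr6:42217832-42217931, - strand): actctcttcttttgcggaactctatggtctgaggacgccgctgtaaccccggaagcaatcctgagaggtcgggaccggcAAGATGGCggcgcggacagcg
MRPL3 (chr3:131502942-131503041, - strand): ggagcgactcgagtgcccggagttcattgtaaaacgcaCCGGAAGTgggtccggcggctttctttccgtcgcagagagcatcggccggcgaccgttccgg
MRPL27 (chr17:50373155-50373254, - strand): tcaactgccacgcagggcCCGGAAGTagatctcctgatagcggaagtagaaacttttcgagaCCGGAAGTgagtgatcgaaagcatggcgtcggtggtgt
MRPS34 (chr16:1773105-1773204, - strand): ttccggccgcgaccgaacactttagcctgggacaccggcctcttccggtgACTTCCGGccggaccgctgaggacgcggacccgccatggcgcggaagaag
MRPL12 (chr17:81703297-81703396, + strand): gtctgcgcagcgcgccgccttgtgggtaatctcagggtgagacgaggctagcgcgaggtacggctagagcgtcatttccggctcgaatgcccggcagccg
MRPL39 (chr21:25607452-25607551, - strand): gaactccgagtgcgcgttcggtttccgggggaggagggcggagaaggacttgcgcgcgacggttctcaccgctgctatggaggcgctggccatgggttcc

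In RT112 R1 cultured in drug, 40 of the 73 members fell and none rose against parental RT112, where 6.52% of all genes fell and 5.19% rose. The median difference was -0.71 over the members and -0.01 over all genes, and 69 members lay below 0. Both subunits took part, with 23 of 48 large subunit members (median -0.68) and 17 of 25 small subunit members (median -0.87) lower. By ancestry, 23 of 42 members with bacterial counterparts (median -0.73) and 15 of 29 members found only in mitochondria (median -0.67) fell. At an unadjusted p under 0.05, limma gave 1 member higher and 62 lower, and the methods' t-test (which the study's methods use for single genes, with limma for calls across all genes) gave 1 higher and 61 lower. MRPL12, the protein of the stalk that recruits translation factors, had 7.58, 7.22 and 7.71 in R1 in drug, against 9.30, 9.16 and 9.30 in parental cells. All R1 arrays were lower than all parental arrays, by -1.75 on average (SE 0.14, adjusted p = 8.27e-04). MRPL39, found only in mitochondrial ribosomes, had 8.75, 8.56 and 9.26 in R1 in drug and 10.70, 10.43 and 10.47 in parental cells, a difference of -1.68 (SE 0.19, adjusted p = 0.00254). MRPL3, the counterpart of a bacterial protein near the centre of peptide bond formation, had 11.37, 10.95 and 11.74 in R1 in drug and 13.04, 12.85 and 12.82 in parental cells, a difference of -1.55 (SE 0.20, adjusted p = 0.00396). The R1 and parental arrays did not overlap for either gene, and replicate 3 of R1, the array with the lowest correlation to its group, was the highest R1 value in both. MRPL35, a large subunit protein, had 7.75, 7.38 and 8.39 in R1 in drug against 9.43, 9.23 and 9.50 in parental cells (difference -1.55, SE 0.26, adjusted p = 0.00899). In fits that left out 1 array, MRPL12 passed in 6 of 6, MRPL39 and MRPL3 in 2 of 6 and MRPL35 in 1 of 6, with highest adjusted p of 0.00859, 0.0170, 0.0226 and 0.0452. The count of members that fell was 15, 28 and 51 without R1 in drug replicates 1, 2 and 3, and 12, 12 and 10 without parental replicates 1, 2 and 3, while the median stayed between -0.81 and -0.68.

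A few members did not follow the others in this comparison. MRPL55 had 6.44, 6.69 and 6.35 in R1 in drug and 6.23, 6.10 and 6.17 in parental cells, so that all R1 arrays were higher, but the difference of 0.33 (SE 0.11, adjusted p = 0.0768) did not pass the test. MRPL33 differed by 0.26 (SE 0.20, adjusted p = 0.423) with overlapping arrays. MRPS14, a small subunit protein with a bacterial counterpart, had 8.80, 8.65 and 8.51 in R1 in drug and 8.41, 8.46 and 8.66 in parental cells (difference 0.14, SE 0.11, adjusted p = 0.423). Its arrays overlapped. The related proteins MRPS18A and MRPS18B, of which MRPS18A lies in the large subunit in solved structures, both fell. MRPS18B had 10.57, 10.77 and 10.43 in R1 in drug and 11.90, 11.85 and 11.97 in parental cells (difference -1.32, SE 0.10, adjusted p = 8.24e-04), and MRPS18A differed by -1.18 (SE 0.15, adjusted p = 0.00317). MRPS18B passed in all 6 fits that left out 1 array, and MRPS18A in 2 of 6.

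**Figure D1:**
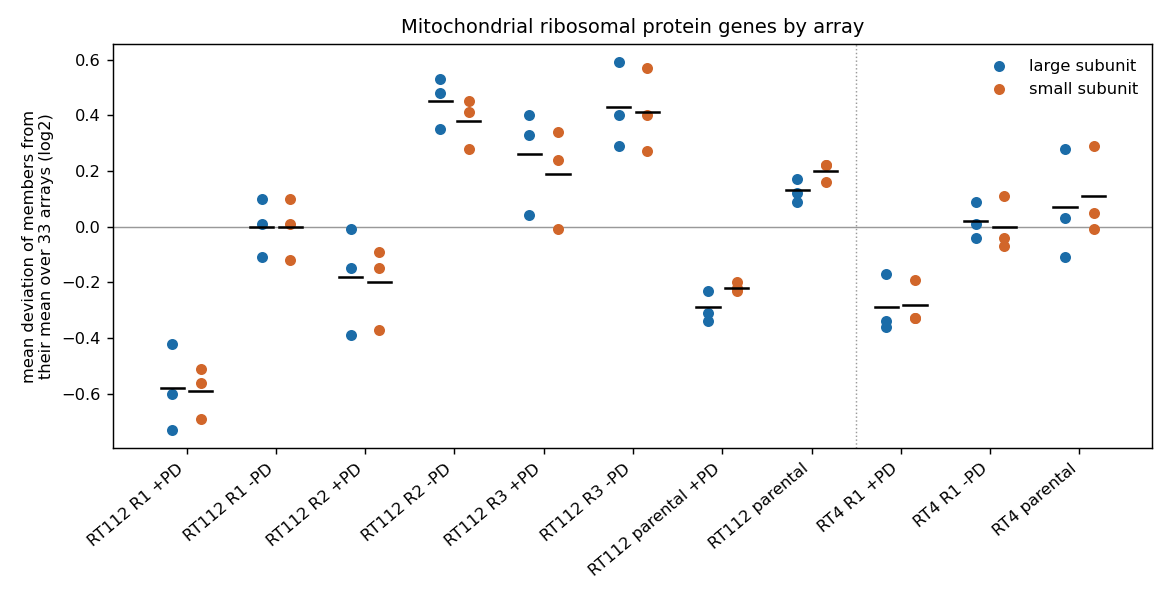
Mean deviation of the 48 large subunit (blue) and 25 small subunit (orange) genes from their own mean over the 33 arrays (y axis, log2), by group (x axis). Points are arrays, bars are means of 3 arrays, and the dotted line separates RT112 from RT4. For both subunits every array of RT112 R1, R2 and parental cells with PD173074 lies below every array of untreated parental RT112.

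Other genes of mitochondrial translation were followed as lists. In R1 in drug, 8 of 24 mitoribosome assembly factors, 7 of 13 translation factors and 8 of 16 mitochondrial aminoacyl-tRNA synthetases fell, none of any of these lists rose, and the list medians were -0.45, -0.80 and -0.70. LRPPRC, which stabilizes mitochondrial messenger RNAs, differed by -1.67 (adjusted p = 8.17e-04), and the elongation factor GFM1 by -1.17 (adjusted p = 0.00116). MARS2 and SARS2, which charge mitochondrial tRNAs with methionine and serine, differed by -2.10 (adjusted p = 2.27e-04) and -1.72 (adjusted p = 9.44e-04). Among the assembly factors, FASTKD2 (-1.24, adjusted p = 0.00176) and TRUB2 (-1.17, adjusted p = 0.00114) had the largest differences. DAP3 and PTCD3, which are proteins of the small mitochondrial subunit under other symbols, differed by -1.15 (adjusted p = 9.98e-04) and -0.83 (adjusted p = 0.00147). Of 8 regulators of mitochondrial genes, MYC (-1.41, adjusted p = 0.00564), PPRC1, PPARGC1B and ESRRA fell. Of 5 mitochondrial transcription genes, 1 fell, TFB2M (-1.07, adjusted p = 0.00978).

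The proteins of the cytosolic ribosome were set beside them. Among 51 cytosolic ribosomal protein genes, 2 fell (RPL29, -1.05, adjusted p = 0.00472, and RPS25) and 1 rose (RPS27L, 0.89, adjusted p = 0.00322) in R1 in drug against parental RT112, with a median of -0.39. Of these 51 genes 43 lay below 0, and 40 had an unadjusted p under 0.05 by limma in either direction. Nothing particular to either ribosome was tested from these counts.

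In RT112 R2 cultured in 2 µM PD173074, 15 of the 73 members fell and none rose against parental RT112, beside 8.91% of all genes that fell and 9.08% that rose. The median was -0.30 over the members and -0.04 over all genes, with 60 members below 0. Of the large subunit 7 of 48 fell (median -0.29), and of the small subunit 8 of 25 (median -0.43). At an unadjusted p under 0.05, 4 members were higher and 39 lower by limma, and 3 higher and 32 lower by the methods' t-test. MRPL35 had 8.23, 7.89 and 8.54 in R2 in drug and 9.43, 9.23 and 9.50 in parental cells, a difference of -1.17 (SE 0.17, adjusted p = 0.00235). For MRPL39 the arrays gave 9.34, 9.06 and 9.78 in R2 in drug and 10.70, 10.43 and 10.47 in parental cells (difference -1.14, SE 0.18, adjusted p = 0.00371). MRPS27, a small subunit protein of the pentatricopeptide repeat family, had 9.13, 9.09 and 9.47 in R2 in drug and 10.29, 10.36 and 10.44 in parental cells (difference -1.13, SE 0.12, adjusted p = 6.28e-04). The groups did not overlap for any of these genes, and replicate 2 was the lowest R2 array in each. MRPS18B differed by -1.07 (SE 0.13, adjusted p = 0.00130), with 11.04, 10.55 and 10.93 in R2 in drug against 11.90, 11.85 and 11.97 in parental cells. MRPS27 and MRPS18B passed in 6 of 6 fits that left out 1 array, MRPL35 in 3 and MRPL39 in 2. The count of members that fell was 8, 9 and 22 without R2 in drug replicates 1, 2 and 3, and 7, 6 and 6 without parental replicates 1, 2 and 3.

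Of the other lists in R2 in drug, 5 assembly factors fell and 1 rose, 3 translation factors fell and 8 of 16 aminoacyl-tRNA synthetases fell. MARS2 (-1.50, adjusted p = 9.23e-04) and SARS2 (-1.23, adjusted p = 0.00553) again had the largest differences of the synthetases. LRPPRC differed by -1.02 (adjusted p = 0.00143) and the ribosome release factor MRRF by -0.91 (adjusted p = 4.18e-04). Among the assembly factors the rRNA methyltransferases MRM1 (-0.96, adjusted p = 0.00303) and MRM2 (-0.75, adjusted p = 0.00765) differed most. MYC fell (-1.40, adjusted p = 0.00121), whereas PPARGC1A, a coactivator of mitochondrial biogenesis, rose (1.32, adjusted p = 7.37e-04). DAP3 fell (-0.81, adjusted p = 0.00176), and GADD45GIP1, a large subunit protein, rose (0.69, adjusted p = 0.00576). TFAM, which packages mitochondrial DNA and starts its transcription, fell (-0.74, adjusted p = 0.00968). Of the cytosolic ribosomal proteins 4 fell and 1 rose, led by RPS27L (1.14, adjusted p = 2.17e-04) and RPL35 (-0.77, adjusted p = 0.00295). Their median was -0.19, 40 of 51 lay below 0, and 24 had an unadjusted p under 0.05 by limma.

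Against parental RT112, RT112 R3 in drug had 1 member higher and none lower, where 0.899% of all genes rose and 1.05% fell. The median over the members was 0.11, with 50 above 0, and over all genes 0.00. The median of the members was 0.03 without R3 in drug replicate 1 and 0.18 without replicate 3. At an unadjusted p under 0.05, 15 members were higher and 5 lower by limma, and 14 higher and 4 lower by the methods' t-test. The member that passed was MRPL13, a large subunit protein with a bacterial counterpart, which had 8.76, 8.81 and 8.69 in R3 in drug and 8.19, 8.20 and 8.11 in parental cells. All R3 arrays were higher, with a difference of 0.59 (SE 0.07, adjusted p = 0.00736). Without R3 in drug replicate 3, 3 members rose, and leaving out R3 in drug replicate 1 or 2 or parental replicate 1, 2 or 3 left 0.

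R1, R2 and R3 in drug were set against the same parental arrays, so that their differences are not independent of each other. R1 and R2 in drug were therefore compared with R3 in drug directly. Against R3 in drug, 19 members fell and none rose in R1 in drug, where 2.18% of all genes fell and 2.59% rose. The median was -0.81 over the members and -0.01 over all genes, 61 members were lower and none higher at an unadjusted p under 0.05 by limma, and 57 lower and none higher by the methods' t-test. Over all 22465 genes these counts were 7423 and 6446, in either direction. MRPL58, a peptidyl-tRNA hydrolase built into the large subunit, had 10.77, 10.75 and 10.92 in R1 and 12.83, 12.91 and 12.29 in R3, a difference of -1.86 (SE 0.18, adjusted p = 0.00367). MRPL3 differed by -1.85 (SE 0.26, adjusted p = 0.00989) with 11.37, 10.95 and 11.74 in R1 and 13.45, 13.36 and 12.80 in R3. MRPL39 differed by -1.80 (SE 0.23, adjusted p = 0.00714) and MRPL57, also found only in mitochondrial ribosomes, by -1.44 (SE 0.13, adjusted p = 0.00318). All arrays of R1 were lower than all arrays of R3 for these genes, and replicate 3 was the lowest of the R3 arrays. MRPL58 and MRPL57 passed in 2 of 6 fits that left out 1 array, MRPL3 and MRPL39 in 1 of 6. The count was 0, 3 and 21 without R1 in drug replicates 1, 2 and 3, and 0, 0 and 12 without R3 in drug replicates 1, 2 and 3. R2 in drug had 1 member lower than R3 in drug and none higher, beside 1.02% of all genes lower and 2.12% higher, with a median of -0.42 over the members. With no adjustment, at a p under 0.05, 2 members were higher and 46 lower by limma, and 1 higher and 31 lower by the methods' t-test. The member that passed, the small subunit protein MRPS7, had 10.69, 10.52 and 10.83 in R2 and 11.51, 11.62 and 11.35 in R3 (difference -0.81, SE 0.12, adjusted p = 0.00991). A count of 1 was obtained without replicate 3 of R2 in drug or replicate 3 of R3 in drug, and 0 without replicate 1 or 2 of R2 in drug or replicate 1 or 2 of R3 in drug.

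**Figure D2:**
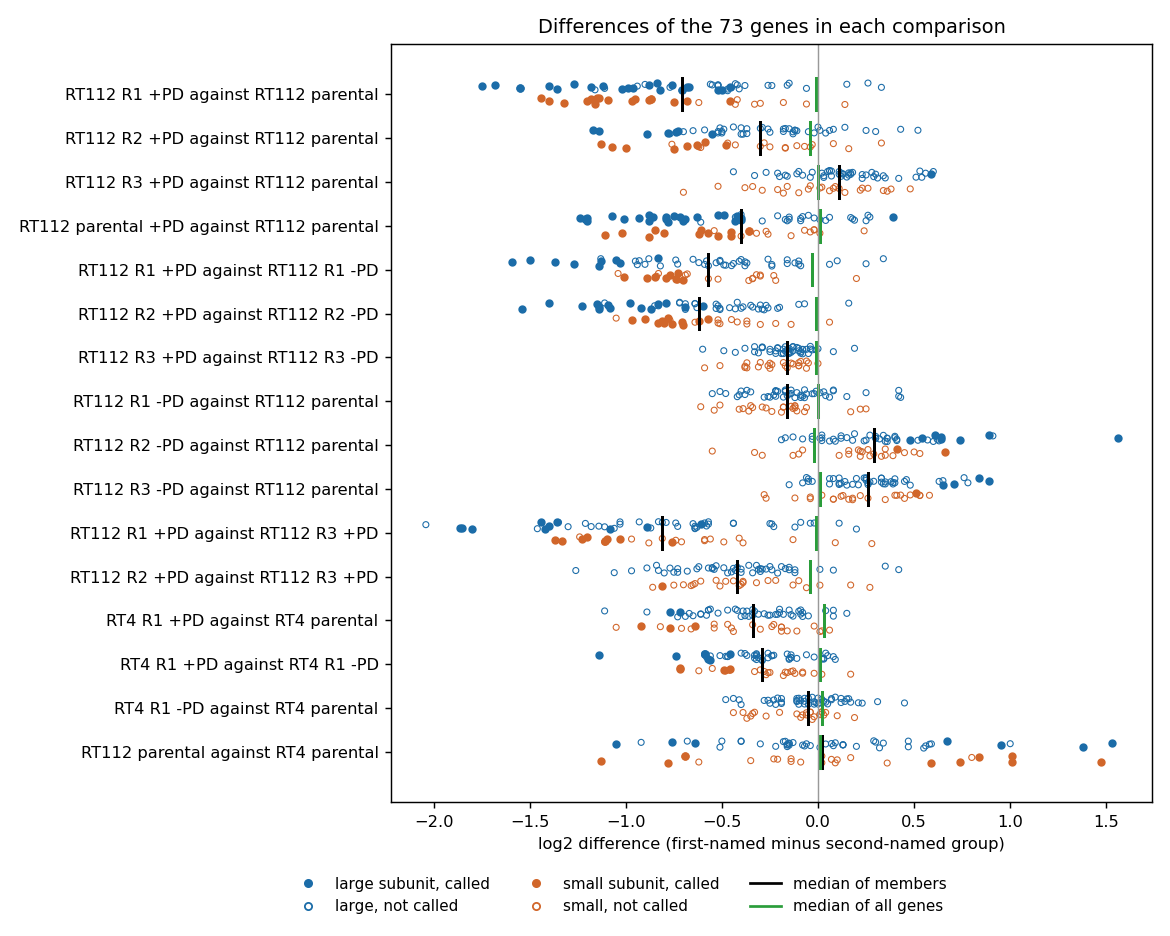
Log2 difference of each of the 73 genes (x axis) in the 16 pairs of groups (rows, first-named minus second-named group), for the large (blue) and small (orange) subunit. Filled points passed limma at an adjusted p under 0.01, black lines are medians of the 73 genes and green lines medians of all genes, and the black line lies furthest left, at -0.81, for RT112 R1 in drug against R3 in drug.

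After 24 h of PD173074 in parental RT112, 37 of the 73 members fell and 1 rose against untreated parental cells, where 13.1% of all genes fell and 11.4% rose. The median was -0.40 over the members and 0.01 over all genes. Of the large subunit 24 of 48 fell and 1 rose (median -0.41), and of the small subunit 13 of 25 fell (median -0.40). MRPL12 averaged 8.02 ± 0.03 in treated and 9.25 ± 0.08 in untreated cells (SD, n = 3 each), a difference of -1.24 (SE 0.07, adjusted p = 6.31e-05). For MRPL35 the treated arrays gave 8.27, 8.14 and 8.11 and the untreated arrays 9.43, 9.23 and 9.50 (difference -1.21, SE 0.09, adjusted p = 1.42e-04). MRPL3, whose promoter above holds an ETS core, had 11.88, 11.68 and 11.54 in treated and 13.04, 12.85 and 12.82 in untreated cells (difference -1.20, SE 0.11, adjusted p = 2.58e-04). Treated and untreated arrays did not overlap for these 3 genes. MRPL42, a large subunit protein found only in mitochondria, had 10.74, 10.62 and 10.53 in treated and 11.90, 11.79 and 11.79 in untreated cells (difference -1.20, SE 0.08, adjusted p = 9.23e-05). Each of the 4 passed in all 6 fits that left out 1 array. MRPL43, the member that rose, had 7.18, 7.03 and 7.16 in treated and 6.62, 6.82 and 6.76 in untreated cells (difference 0.39, SE 0.08, adjusted p = 0.00924), and it passed in none of those fits. The total of members called was 31, 31 and 24 without treated replicates 1, 2 and 3, and 24, 27 and 24 without untreated replicates 1, 2 and 3, and all of these fell.

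The genes around the mitochondrial ribosome also moved within 24 h. Of the assembly factors 11 of 24 fell and 2 rose, of the translation factors 6 of 13 fell, and of the aminoacyl-tRNA synthetases 10 of 16 fell, with medians of -0.31, -0.43 and -0.48. Of the mitochondrial transcription genes 3 of 5 fell, led by TFAM (-1.25, adjusted p = 1.87e-04). MYC differed by -3.92 (adjusted p = 1.70e-04) and PPRC1, a coactivator related to PPARGC1A, by -2.22 (adjusted p = 8.03e-05). Of the cytosolic ribosomal proteins 6 fell and 6 rose, with a median of -0.16. Among these 51 genes 37 lay below 0, and 28 had an unadjusted p under 0.05 by limma.

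Members with a motif in the promoter were set beside those without. After 24 h of drug, 11 of 20 members with the YY1 core fell (median -0.47), and 22 of 45 without it (median -0.36). For the ETS core, 8 of 11 members with it fell (median -0.52), and 25 of 54 without it (median -0.36). In R1 in drug against parental cells, the medians were -0.61 with and -0.77 without the YY1 core, and -0.67 with and -0.73 without the ETS core. In R2 in drug against parental cells, 1 of 11 members with the ETS core fell, and 11 of 54 without it. For the YY1 core these counts were 6 of 20 and 6 of 45. Within RT4 R1 they were 2 of 11 and 7 of 54 for ETS, and 3 of 20 and 6 of 45 for YY1. In R1 in drug they were 1 of 5 and 33 of 60 for NRF1, and 0 of 5 and 34 of 60 for the E-box. These are descriptions of the members, and no difference between them was tested.

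Within a derivative, cells in drug were compared with the same derivative 4 to 6 passages out of drug. In R1, 17 members fell in drug against R1 out of drug and none rose, beside 2.97% of all genes that fell and 2.71% that rose, with a median of -0.57 over the members and -0.03 over all genes. With no adjustment, at a p under 0.05, limma gave 54 lower and none higher, and the methods' t-test 48 lower and none higher. Of the 51 cytosolic ribosomal protein genes, 0 were called, with a median of -0.27. Below 0 lay 46 of them, and 18 had an unadjusted p under 0.05 by limma. MRPL3 had 11.37, 10.95 and 11.74 in drug and 13.16, 12.80 and 12.86 out of drug, a difference of -1.59 (SE 0.22, adjusted p = 0.00620). MRPL39 had 8.75, 8.56 and 9.26 in drug and 10.62, 10.07 and 10.38 out of drug (difference -1.50, SE 0.22, adjusted p = 0.00817). MRPL12 differed by -1.37 (SE 0.16, adjusted p = 0.00426), and the large subunit protein MRPL50 by -1.27 (SE 0.19, adjusted p = 0.00883). In none of these 4 did the groups overlap. Each passed in 1 of 6 fits that left out 1 array, except MRPL12 in 2 of 6. The count was 0, 2 and 28 without R1 in drug replicates 1, 2 and 3, and 0 without replicate 1, 2 or 3 of R1 out of drug.

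In R2, 26 members fell in drug against R2 out of drug and none rose, where 5.84% of all genes fell and 4.35% rose, and the median was -0.62 over the members and -0.01 over all genes. The unadjusted counts were 59 lower and none higher by limma, and 55 lower and none higher by the methods' t-test. Among all 22465 genes they were 7601 and 6801, in either direction. Of the 51 cytosolic ribosomal protein genes, 9 fell and 1 rose, with a median of -0.47. Below 0 lay 48 of them, and 41 had an unadjusted p under 0.05 by limma. MRPL4, the counterpart of a bacterial protein that lines the exit tunnel of the new peptide, had 8.62, 8.13 and 8.67 in drug and 10.13, 9.96 and 9.96 out of drug. The groups were separated, with a difference of -1.54 (SE 0.16, adjusted p = 0.00204). MRPL12 had 8.61, 8.07 and 8.77 in drug and 10.10, 9.75 and 9.79 out of drug (difference -1.40, SE 0.20, adjusted p = 0.00464). MRPL39 differed by -1.23 (SE 0.18, adjusted p = 0.00556), and MRPL42, with the YY1 core printed above, by -1.15 (SE 0.12, adjusted p = 0.00235). MRPL4 passed in 4 of 6 fits that left out 1 array, MRPL12 and MRPL42 in 2 and MRPL39 in 1. The count was 0, 3 and 30 without R2 in drug replicates 1, 2 and 3, and 5, 2 and 0 without R2 out of drug replicates 1, 2 and 3. The comparisons within R1 and within R2 share no array, and 13 members fell in both, which is 76.5% of those in R1 and 50% of those in R2. Over all genes, 462 fell in both, or 69.2% of the 668 in R1 and 35.2% of the 1313 in R2. They are genes of both subunits, namely MRPL3, MRPL4, MRPL12, MRPL27, MRPL39, MRPL42, MRPL50, MRPS5, MRPS7, MRPS9, MRPS25, MRPS27 and MRPS28. Of the 37 members that fell after 24 h of drug in parental cells, 19 also fell in R2 in drug against R2 out of drug (51.4% of the 37 and 73.1% of the 26), again with no shared array. The shares over all genes were 31.8% of 2952 and 71.4% of 1313.

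In R3, no member differed between cells in drug and out of drug, and no gene of all 22465 was called (0% higher and 0% lower). With no adjustment, at a p under 0.05, 11 members were lower and none higher by limma, and 5 lower and none higher by the methods' t-test. The median of the members was -0.16, with 69 below 0, and that of all genes -0.01. It was -0.07 without R3 in drug replicate 3 and -0.09 without R3 out of drug replicate 3. The largest difference was in MRPL4, with 8.62 ± 0.36 in drug and 9.22 ± 0.27 out of drug (SD, n = 3 each). The groups did not overlap, but the difference of -0.60 (SE 0.22, adjusted p = 0.562) did not pass the test.

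**Figure D3:**
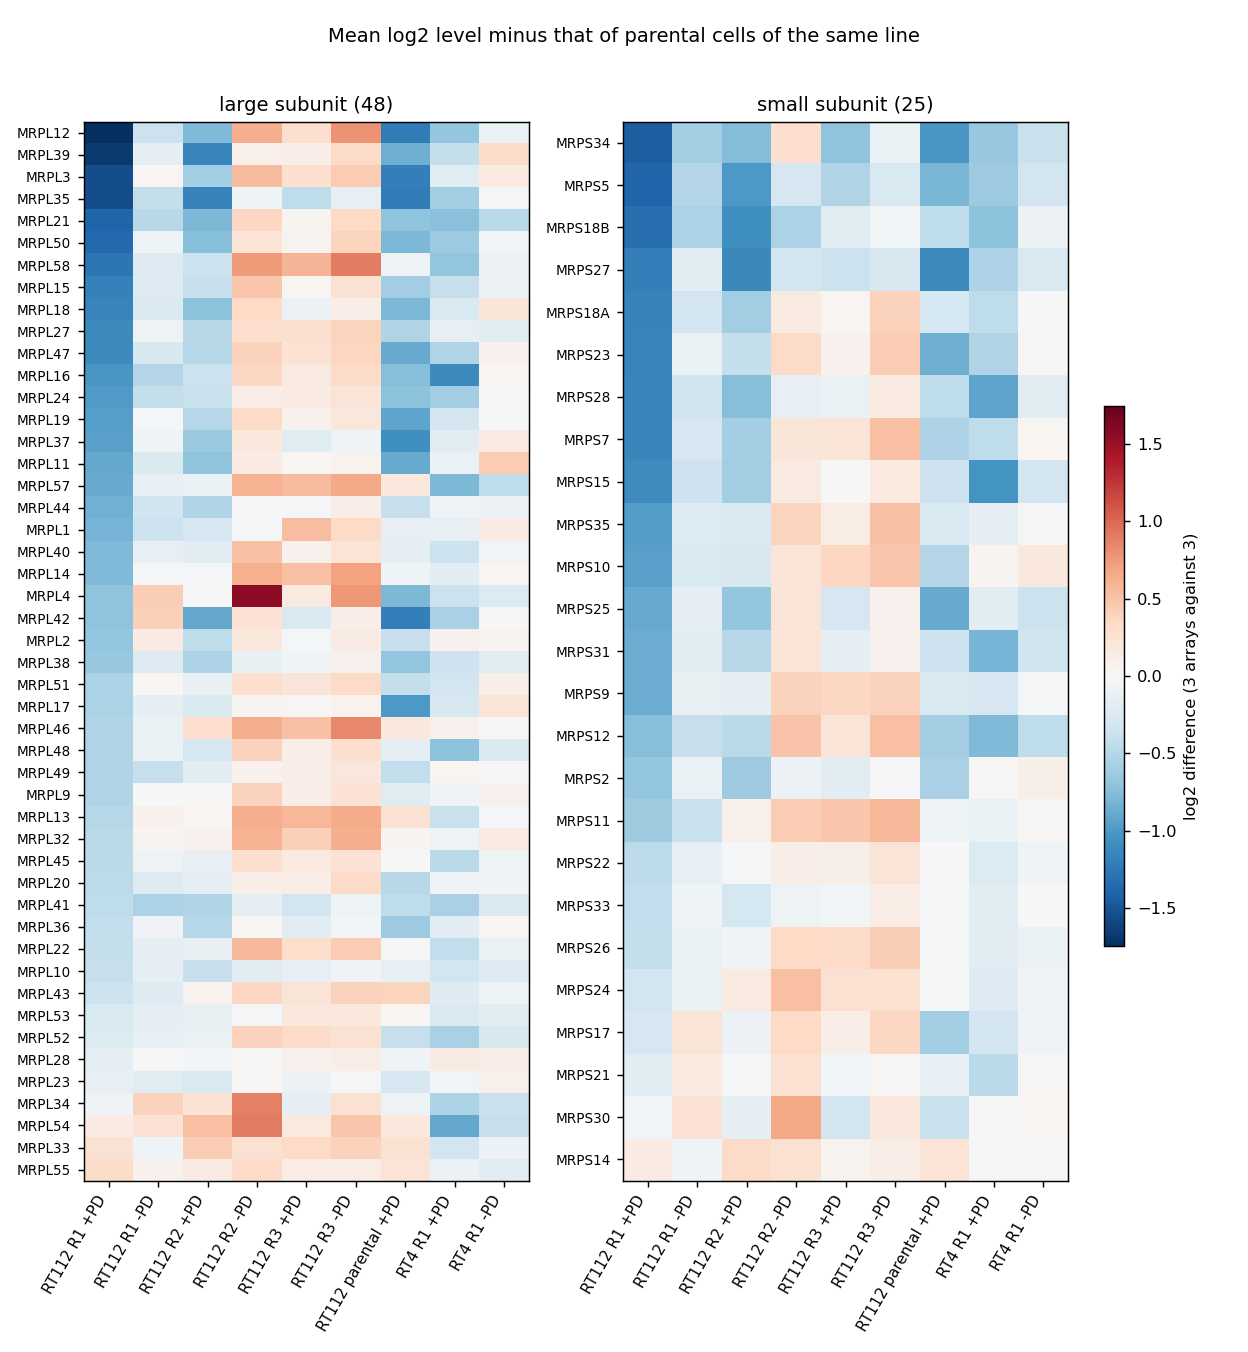
Mean log2 level in each group minus the mean of untreated parental cells of the same line (colour, blue lower and red higher), for the 48 large subunit genes on the left and the 25 small subunit genes on the right, ordered by RT112 R1 in drug. Each cell compares 3 arrays with 3, the columns of a line share their parental arrays, and the darkest blue cell is MRPL12 in R1 in drug at -1.75.

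Out of drug, the derivatives stood differently against parental RT112. R1 out of drug had no member called, beside 0.761% of all genes higher and 0.686% lower. Its members had a median of -0.16, with 59 below 0, and of -0.10 without R1 out of drug replicate 3. By limma 3 members were higher and 20 lower at an unadjusted p under 0.05, and by the methods' t-test 2 higher and 16 lower. Over all 22465 genes these tests gave 5084 and 4191, in either direction. MRPS34, found only in mitochondrial ribosomes, had the largest difference, with 11.28, 11.90 and 11.12 in R1 out of drug and 12.14, 11.84 and 12.15 in parental cells (difference -0.61, SE 0.20, adjusted p = 0.132). Its arrays overlapped.

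In R2 out of drug, 10 members rose and none fell against parental RT112, where 4.18% of all genes rose and 2.69% fell, and the median was 0.29 over the members and -0.02 over all genes. The unadjusted counts were 41 higher and 4 lower by limma, and 38 higher and 5 lower by the methods' t-test. Among all 22465 genes they were 7521 and 6571, in either direction. Of the 51 cytosolic ribosomal protein genes, 7 rose and 0 fell, with a median of 0.22. Above 0 lay 46 of them, and 23 had an unadjusted p under 0.05 by limma. MRPL4 had 10.13, 9.96 and 9.96 in R2 out of drug and 8.47, 8.34 and 8.57 in parental cells, a difference of 1.56 (SE 0.09, adjusted p = 5.40e-04) that passed in 6 of 6 fits that left out 1 array. MRPL34 differed by 0.89 (SE 0.14, adjusted p = 0.00853), but its parental arrays, at 5.53, 5.71 and 5.49, lay near the array medians. MRPL58 had 13.01, 12.80 and 12.64 in R2 out of drug and 12.09, 12.08 and 12.07 in parental cells (difference 0.74, SE 0.10, adjusted p = 0.00522). MRPS30, named for the small subunit but found in the large subunit in solved structures, had 12.13, 12.17 and 12.14 in R2 out of drug and 11.56, 11.30 and 11.59 in parental cells (difference 0.66, SE 0.09, adjusted p = 0.00542). R2 arrays were higher than parental arrays in all 4 genes. MRPL58 passed in 2 of the 6 fits that left out 1 array, MRPL34 and MRPS30 in none. The total of members called was 5 (4 higher and 1 lower), 2 and 2 without R2 out of drug replicates 1, 2 and 3, and 2, 1 and 1 without parental replicates 1, 2 and 3. Same-numbered arrays of this pair of groups correlated in their deviations (0.23, 0.21 and 0.07). With the replicate number as a block, 3 members were called.

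In R3 out of drug, 5 members rose and none fell, beside 1.76% of all genes that rose and 1.42% that fell, with a median of 0.26 over the members (0.17 without R3 out of drug replicate 3) and 0.01 over all genes. Before adjustment, at a p under 0.05, 37 were higher and 1 lower by limma, and 31 higher and 1 lower by the methods' t-test. Of the 51 cytosolic ribosomal protein genes, 2 rose and 0 fell, with a median of 0.18. Above 0 lay 42 of them, and 22 had an unadjusted p under 0.05 by limma. MRPL58 had 12.97, 12.72 and 13.22 in R3 out of drug and 12.09, 12.08 and 12.07 in parental cells, a difference of 0.89 (SE 0.12, adjusted p = 0.00744). MRPL46, a large subunit protein found only in mitochondria, differed by 0.84 (SE 0.13, adjusted p = 0.00958), with 9.64, 9.54 and 9.99 in R3 out of drug and 9.01, 8.81 and 8.82 in parental cells. MRPL14 (0.71, SE 0.09, adjusted p = 0.00524) and MRPL13 (0.65, SE 0.09, adjusted p = 0.00593) have bacterial counterparts, and none of these genes had overlapping arrays. In this pair of groups, arrays with the same replicate number deviated together, and with the replicate number as a block none of the 5 passed (0 members called). Leaving out R3 out of drug replicate 2 gave 3 members, and leaving out its replicate 1 or 3 or any of parental replicates 1, 2 and 3 gave 0. R2 and R3 out of drug share the parental arrays, so that their values are given side by side only.

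In RT4, 5 members fell in RT4 R1 in drug against parental RT4 and none rose, where 3.33% of all genes fell and 2.53% rose. The median was -0.34 over the members and 0.03 over all genes, and 66 members lay below 0. By limma 33 were lower and none higher at an unadjusted p under 0.05, and by the methods' t-test 25 lower and none higher. Over all 22465 genes these tests gave 6070 and 5348, in either direction. MRPS28, a small subunit protein, had 7.76, 7.93 and 7.85 in RT4 R1 in drug and 8.72, 8.87 and 8.71 in parental cells, a difference of -0.92 (SE 0.10, adjusted p = 0.00179). MRPS12, the counterpart of a bacterial protein at the decoding site, had 6.82, 7.12 and 7.03 in RT4 R1 in drug and 7.61, 7.93 and 7.74 in parental cells (difference -0.77, SE 0.13, adjusted p = 0.00911). MRPL57 differed by -0.77 (SE 0.11, adjusted p = 0.00464) and MRPL48 by -0.72 (SE 0.11, adjusted p = 0.00812). In all 4 the groups were separated. MRPS28 passed in 4 of 6 fits that left out 1 array, and the others in 1 of 6. The count was 0, 1 and 0 without RT4 R1 in drug replicates 1, 2 and 3, and 11, 1 and 1 without parental replicates 1, 2 and 3. MRPS5, MRPS12, MRPS28 and MRPL57 also fell in RT112 R1 in drug against its own parental cells, which is 4 of the 5 members in RT4 R1 (80%) and 4 of the 40 in RT112 R1 (10%). Over all genes these shares were 29% of 749 and 14.8% of 1464. Of the other lists, 1 assembly factor (YBEY, -0.73, adjusted p = 0.00467), 2 of 13 translation factors (SLIRP, -1.22, adjusted p = 0.00369, and MTRF1) and 1 aminoacyl-tRNA synthetase (IARS2, -0.79, adjusted p = 0.00946) fell, as did MYC (-2.06, adjusted p = 0.00823). Of the cytosolic ribosomal proteins 4 of 51 fell, led by RPL30 (-0.93, adjusted p = 0.00260) and RPS21 (-0.79, adjusted p = 0.00760), with a median of -0.37. Below 0 lay 49 of the 51, and 30 had an unadjusted p under 0.05 by limma.

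Against RT4 R1 out of drug, 11 members fell in RT4 R1 in drug and none rose, beside 5.74% of all genes that fell and 4.79% that rose, and the median was -0.29 over the members and 0.01 over all genes. Unadjusted counts were 39 lower and none higher by limma, and 34 lower and none higher by the methods' t-test. Such counts over all genes are not given for this pair of groups. MRPL16, the counterpart of a bacterial large subunit protein, had 8.52, 8.73 and 8.39 in drug and 9.44, 9.76 and 9.86 out of drug, a difference of -1.14 (SE 0.14, adjusted p = 0.00161) that passed in 6 of 6 fits that left out 1 array. MRPL39 had 8.53, 8.73 and 8.48 in drug and 9.20, 9.34 and 9.41 out of drug (difference -0.74, SE 0.10, adjusted p = 0.00235). MRPS15 differed by -0.72 (SE 0.10, adjusted p = 0.00370), and MRPS28, with 7.76, 7.93 and 7.85 in drug and 8.44, 8.67 and 8.60 out of drug, by -0.72 (SE 0.09, adjusted p = 0.00177). For each of the 4, all arrays in drug were lower than all arrays out of drug. MRPS28 passed in 5 of 6 such fits, and MRPL39 and MRPS15 in 2 of 6. The count was 3, 8 and 1 without RT4 R1 in drug replicates 1, 2 and 3, and 4, 2 and 4 without RT4 R1 out of drug replicates 1, 2 and 3. Of these 11 members, 10 also fell after 24 h of drug in parental RT112 (90.9% of the 11 and 27% of the 37), MRPS21 being the exception, and over all genes the shares were 52.1% of 1289 and 22.7% of 2952. Some other overlaps with no shared array had lower shares. Of the members that fell within R2, 23.1% also fell within RT4 R1, or 54.5% of those in RT4 R1. Over all genes these shares were 31.2% and 31.7%. For members that fell within R1 they were 23.5% and 36.4%, beside 25% and 13% over all genes. For 24 h of drug and RT4 R1 in drug against parental RT4 they were 8.11% and 60%, beside 9.18% and 36.2%. Whether any of these overlaps is particular to the members was not tested. RT4 R1 out of drug had no member called against parental RT4, where 0.432% of all genes rose and 0.534% fell. Its median was -0.05, and 1 member was higher and 8 lower at an unadjusted p under 0.05 by limma, and 1 higher and 6 lower by the methods' t-test. Here too, such counts over all genes are not given. MRPL21 had the largest difference there, with 9.66, 9.84 and 9.71 in RT4 R1 out of drug and 10.16, 10.49 and 9.99 in parental RT4 (difference -0.48, SE 0.14, adjusted p = 0.122).

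RT112 R1 and RT4 R1 in drug were compared directly, as the difference from parental cells in RT112 R1 in drug minus that in RT4 R1 in drug. This value is called the difference between lines, but it rests on 1 derivative of each line. Line and derivative cannot be told apart in it. In this test 8 of the 73 members had a negative value past the threshold and none a positive one, beside 3.14% of all genes with a negative and 4.62% with a positive value. Before adjustment, at a p under 0.05, 30 were negative and 3 positive by limma, and the fit over all 33 arrays gave 10 members. No count over all genes is set beside these values. The median over the members was -0.38, and over all genes -0.05. Against parental cells, the median over the members was -0.71 in RT112 R1, -0.30 in RT112 R2 and -0.34 in RT4 R1, each in drug. MRPL3 had the largest value, -1.34 (SE 0.27, adjusted p = 0.00674), since it differed by -1.55 from parental cells in RT112 R1 in drug and by -0.21 in RT4 R1 in drug. MRPL39 (-1.25, SE 0.23, adjusted p = 0.00476), MRPS10 (-1.01, SE 0.20, adjusted p = 0.00575) and MRPL27 (-0.98, SE 0.17, adjusted p = 0.00345) followed. The other members were MRPS35, MRPL2, MRPS2 and MRPS25. MRPL2 passed in 12 of 12 fits that left out 1 array, MRPL27 in 7, MRPL39 and MRPS10 in 4 and MRPL3 in 3. The total was 4, 6 and 13 without RT112 R1 in drug replicates 1, 2 and 3, 1, 3 and 2 without parental RT112 replicates 1, 2 and 3, 4, 1 and 1 without RT4 R1 in drug replicates 1, 2 and 3, and 7 (6 negative and 1 positive), 12 and 4 without parental RT4 replicates 1, 2 and 3.

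Untreated RT112 and RT4 were also compared. Against parental RT4, 10 members were higher and 7 lower in parental RT112, beside 8.68% of all genes higher and 10.1% lower, and the medians were 0.02 and 0.01. MRPL39 had 10.70, 10.43 and 10.47 in RT112 and 8.84, 9.11 and 9.06 in RT4, a difference of 1.53 (SE 0.12, adjusted p = 1.66e-04). MRPS34 had 12.14, 11.84 and 12.15 in RT112 and 10.31, 11.03 and 10.37 in RT4 (difference 1.47, SE 0.21, adjusted p = 0.00196), and MRPL18, a large subunit protein with a bacterial counterpart, had 10.07, 9.93 and 10.01 in RT112 and 8.64, 8.81 and 8.43 in RT4 (difference 1.38, SE 0.12, adjusted p = 2.44e-04). RT112 was higher in all arrays of these genes. In MRPS21 the order was the reverse, with 8.91, 8.79 and 8.91 in RT112 and 9.68, 10.37 and 9.96 in RT4 (difference -1.13, SE 0.17, adjusted p = 0.00284). MRPL39 and MRPL18 passed in 6 of 6 fits that left out 1 array, MRPS34 in 4 and MRPS21 in 2. The count was 8, 9 and 6 without parental RT112 replicates 1, 2 and 3, and 21, 18 and 9 without parental RT4 replicates 1, 2 and 3.

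**Figure D4:**
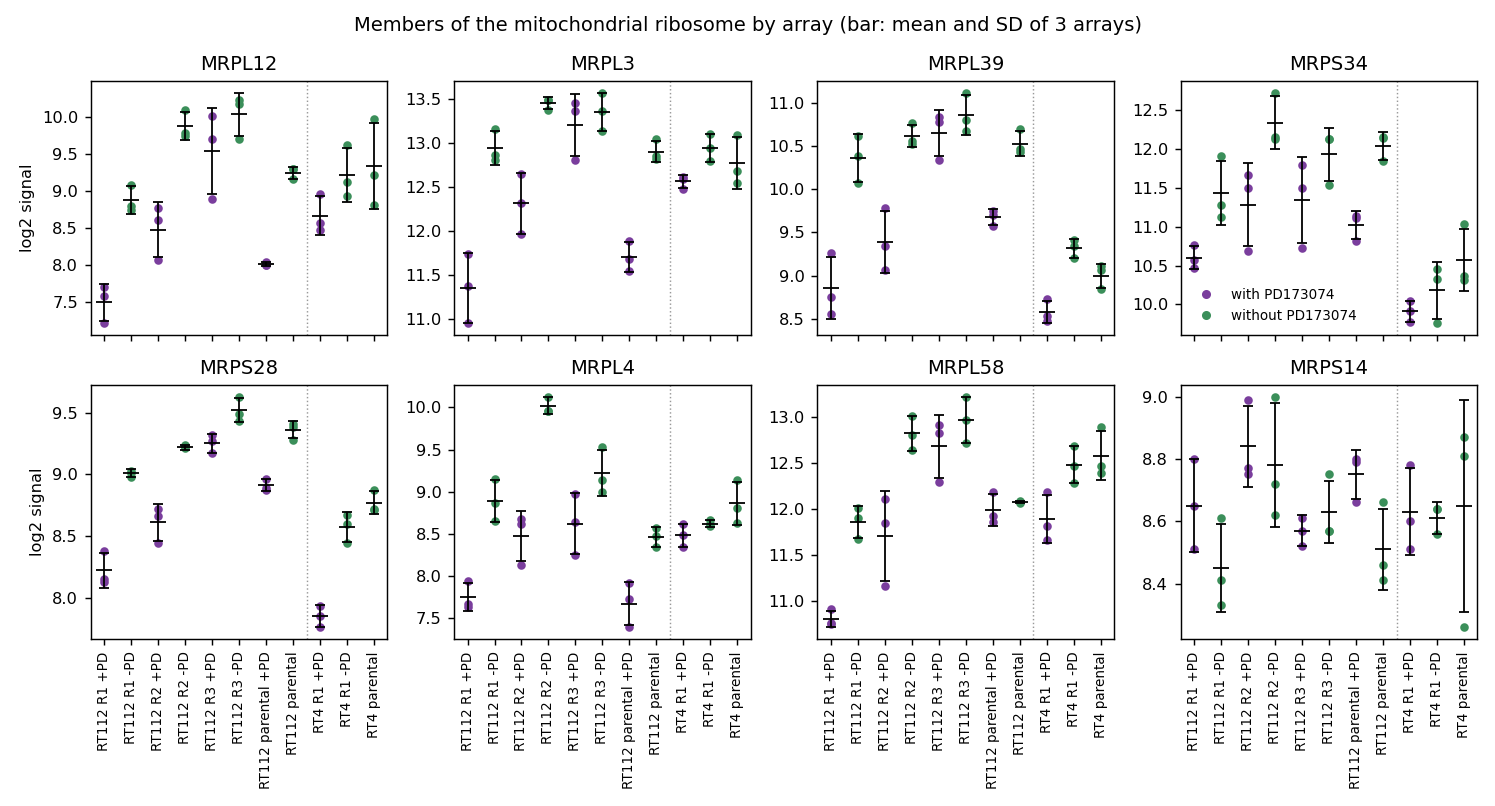
Log2 signal (y axis, own scale per gene) of MRPL12, MRPL3, MRPL39, MRPS34, MRPS28, MRPL4, MRPL58 and MRPS14 in the 11 groups (x axis), with points for arrays in purple with and in green without PD173074, and black bars for the mean and SD of 3 arrays. MRPL4 stands at 10.02 in RT112 R2 out of drug against 8.46 in parental RT112, and MRPS14 ranges over less than the other genes.

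Markers of cell types were followed as lists, as mean log2 level over the list. The 18 urothelial and epithelial markers lay between 12.34 and 12.50 in RT112 R1 in drug, 12.17 and 12.32 in R2 in drug, 11.37 and 11.91 in R3 in drug and 12.44 and 12.66 in parental RT112 treated for 24 h, against 12.10 to 12.66 in untreated parental RT112. EPCAM, an epithelial adhesion molecule, averaged 10.83 ± 0.21 in R1 in drug, 11.44 ± 0.22 in R2 in drug, 13.16 ± 0.18 in R3 in drug and 12.77 ± 0.10 after 24 h, against 13.32 ± 0.05 in untreated parental RT112 (SD, n = 3 each). It fell in R1 (-2.49, adjusted p = 2.01e-04), in R2 (-1.88, adjusted p = 9.43e-05), after 24 h (-0.55, adjusted p = 0.00155) and in RT4 R1 in drug against parental RT4 (-0.92, adjusted p = 0.00421). Its difference in R3 did not pass (-0.16, adjusted p = 0.378). Other markers of the list went the other way. UPK1A averaged 18.23 ± 0.55 in R1 in drug, 17.67 ± 0.73 in R2 in drug and 17.45 ± 0.18 after 24 h. In untreated parental RT112 it averaged 13.78 ± 1.61 (SD, n = 3 each). Of the 18 markers, 0 rose and 1 fell in R1 in drug, 3 rose and 4 fell in R2 in drug, and 3 rose and 3 fell after 24 h. In RT4 R1 in drug against parental RT4, 1 rose and 2 fell.

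The 8 fibroblast markers lay between 6.01 and 6.16 in RT112 R1 in drug, 5.94 and 6.08 in R2 in drug, 5.32 and 5.62 in R3 in drug, 5.42 and 5.57 in R1, R2 and R3 out of drug, and 5.57 and 5.63 after 24 h, against 5.23 to 5.29 in untreated parental RT112. The mean of the list was above untreated parental RT112 in every other RT112 group. LUM averaged 9.70 in untreated parental RT112 and 10.55 to 13.43 in the other RT112 groups. In R1 in drug 2 of 8 rose, LUM (3.73, adjusted p = 3.04e-04) and DCN (1.78, adjusted p = 0.00121), and THY1 stood at 4.87 ± 0.06 in R1 in drug and 4.90 ± 0.02 in parental RT112 (SD, n = 3 each). COL1A2 (4.76 against 4.74), PDGFRA (4.44 against 4.42) and PDGFRB (4.54 against 4.53) stood near their parental levels. COL1A1 (5.69 against 5.18) and FAP (4.94 against 4.39) were higher but did not pass the test. In RT4 R1 in drug the list lay between 4.59 and 4.85, against 4.61 to 4.82 in parental RT4. The 5 immune markers lay between 4.89 and 5.33 in R1 in drug, 4.93 and 5.23 in R2 in drug, 5.05 and 5.29 in R3 in drug and 5.78 and 6.13 after 24 h, against 5.32 to 5.39 in untreated parental RT112. CD68 rose after 24 h (0.97, adjusted p = 7.88e-04), as did LYZ (1.70, adjusted p = 0.00652), whereas CD68 fell in R2 in drug (-2.12, adjusted p = 1.61e-04) and in RT4 R1 in drug against parental RT4 (-1.26, adjusted p = 0.00104). The 4 endothelial markers lay between 4.39 and 4.67 in R1 in drug, 4.53 and 4.86 in R2 in drug and 4.59 and 4.86 after 24 h, where CDH5 rose (0.80, adjusted p = 0.00206), against 4.52 to 4.60 in untreated parental RT112. The part of these markers in the differences of the members was not tested.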

How the data were processed

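Total RNA of 33 samples of RT112 and RT4 was measured on the Affymetrix Human Transcriptome Array 2.0. The deposited table holds log2 signals, which the authors obtained by RMA, a method that subtracts background, gives all arrays the same distribution of values and combines the probes of a probe set. The labels name Affymetrix Expression Console and RMA, with versions not given in the sources used here. Of 70523 probe sets, 67528 are transcript clusters, and 23781 carry 1 symbol, which gives 22465 genes. With that shared distribution, a change shared by most genes cannot be seen. The number of arrays, 3 per group, limits the precision.

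Each pair of groups was fitted by limma 3.58.1 in R 4.3.3 (moderated by empirical Bayes, 2-sided), and the comparison of RT112 R1 with RT4 R1 in 1 fit of 12 arrays, with Benjamini-Hochberg adjustment over 22465 genes and a threshold of 0.01. The procedure was tested on simulated data. Replicate numbers come from the labels. Same-numbered arrays deviated together in R3 out of drug and parental RT112, with correlations of 0.38, 0.28 and 0.11, and numbers were taken to pair the arrays there. In R2 out of drug and parental RT112 the correlations were 0.23, 0.21 and 0.07, and within RT4 R1 0.07, 0.11 and 0.15. Numbers may pair the arrays in these pairs of groups as well. Named members are up to 4 per comparison with the largest absolute difference among those called, or the largest if none was, members with several probe sets, MRPS18A and MRPS18B. Up to 2 genes of each other list were named by the same rule in R1, R2 and RT4 R1 in drug against parental cells, and those named at 24 h, the other lists' genes beyond 2, MRPL55 and MRPL33 were chosen after their values were seen. The members and the lists were chosen with earlier results of these data known. Alternatives were a fit over all arrays of a line, a replicate block, a trended and robust prior (statmod 1.5.0), centring, quantile normalization again, leaving out genes dimmer than the 30th percentile, the mean of all probe sets of a symbol, the methods' t-test and leaving out each array.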

Additional observations from a re-analysis of the deposited data

Results flagged for a closer look

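The difference of RT112 R1 in drug from parental RT112 and that of RT4 R1 in drug from parental RT4 were not alike for 8 members, by a limma test of the difference itself over 12 arrays. The value for MRPL3 was -1.34 (adjusted p = 0.00674), with -1.55 in RT112 and -0.21 in RT4. MRPL39, with -1.68 in RT112 and -0.42 in RT4, had a value of -1.25 (adjusted p = 0.00476). MRPS10, with -0.95 in RT112 and 0.06 in RT4, had -1.01 (adjusted p = 0.00575). For MRPL27 the value was -0.98 (adjusted p = 0.00345), with -1.12 and -0.14 in RT112 and RT4. The small subunit protein MRPS35 had -0.81 (adjusted p = 0.00380), MRPL2 had -0.77 (adjusted p = 5.60e-04), MRPS2 had -0.70 (adjusted p = 0.00521) and MRPS25 had -0.69 (adjusted p = 0.00402). MRPL2 and MRPS2 differed from parental cells by -0.68 each in RT112 R1, and by 0.08 and 0.02 in RT4 R1. All 8 fell in RT112 R1 in drug, and none passed the test in RT4 R1 in drug. Parental RT4 replicate 1 and RT112 R1 in drug replicate 3 enter these values, and of the 8 members MRPL2 passed with any 1 of the 12 arrays left out.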

How the results depend on the processing

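The counts of members depended on the setting. Except for most counts of the unadjusted t-test, counts of all genes at these settings are not given here. The member counts show only how the calls moved with the setting. The median over the members kept its sign in every alternative that changes it, except between parental lines (0.02, and -0.06 to 0.08 without 1 array) and in RT4 R1 out of drug (-0.05, and -0.13 to 0.05). The fit over all arrays of a line called 57 members in R1 in drug against R3 in drug, 46 within R2, 39 within R1, 25 in R2 against R3 in drug, 9 in RT4 R1 in drug against parental RT4, 3 within RT4 R1, and 2 each in R3 in drug and in R1 out of drug against parental RT112. A trended and robust prior called 10 within R1, 5 in R2 out of drug, 3 each in R3 out of drug and in RT4 R1 in drug against parental cells, and 0 in R3 in drug against parental RT112 and in R2 against R3 in drug. Centring on array medians called 3 in R3 out of drug and in RT4 R1 in drug against parental cells, and 0 in R2 against R3 in drug. Quantile normalization again called 13 in the difference between lines, 5 in R2 against R3 in drug and 2 in R3 in drug against parental RT112. The filter on dim genes called 1 in R1 out of drug and 2 in R2 against R3 in drug.

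The methods' t-test at an unadjusted p under 0.05 called, against parental cells, 62 in R1, 35 in R2, 18 in R3 and 25 in RT4 R1 in drug, and 18 in R1, 43 in R2, 32 in R3 and 7 in RT4 R1 out of drug. It called 48 within R1, 55 within R2, 5 within R3, 34 within RT4 R1, 57 in R1 and 32 in R2 against R3 in drug, and 32 between parental lines. Over all 22465 genes it called, against parental cells, 7147 in R1, 8394 in R2, 5367 in R3 and 5348 in RT4 R1 in drug. Out of drug it called 4191 genes in R1, 6571 in R2 and 5278 in R3 against parental RT112. Within R1, R2 and R3 it called 5430, 6801 and 1518 genes, and against R3 in drug 6446 in R1 and 5396 in R2. After Benjamini-Hochberg it called 19 members at 24 h, 8 in R1 in drug, 3 between parental lines and 0 in the other pairs of groups.

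With the replicate block, members called were 25 at 24 h, 7 in R1 in drug, 3 in R2 out of drug and 0 in R3 in drug, R3 out of drug and RT4 R1 in drug, each against parental cells, 4 within R2, 0 within R1, 0 in R1 and in R2 against R3 in drug, 6 between parental lines and 4 in the difference between lines. Every array correlated best with its own number in 3 of 16 pairs of groups, and numbers may pair the arrays there. These are R3 out of drug and R2 out of drug, each against parental RT112, and RT4 R1 in drug against out of drug. Elsewhere arrays share only a number.

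Leaving out 1 array gave 10 to 51 members in R1, 6 to 22 in R2, 0 to 3 in R3 and 24 to 31 at 24 h against parental RT112, 0 to 28 within R1, 0 to 30 within R2, 1 to 5 in R2 and 0 to 3 in R3 out of drug, 0 to 21 in R1 and 0 to 1 in R2 against R3 in drug, 0 to 11 in RT4 R1 in drug, 1 to 8 within RT4 R1, 6 to 21 between parental lines and 1 to 13 in the difference between lines. These fits have fewer arrays. MRPS14 in RT4 R1 in drug, at -0.02 and not called, was 0.15 after quantile normalization again and 0.11 with the mean of its probe sets, and its range without 1 array was -0.21 to 0.10. No other named member changed sign. Signals were not tested against background, and members near the array medians give lower limits only.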

Other observations

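MRPL46 and MRPS11 lie head to head on chromosome 15 (GRCh38.p14), where the 250 bases before the start of MRPL46 (88467389 to 88467638, - strand) overlap those before the start of MRPS11 (88467458 to 88467707, + strand). MRPL46 belongs to the large and MRPS11 to the small subunit, and of the pair MRPL46 holds a YY1 core, 9 bases after its start. The pair was chosen after its values were seen. In parental RT112 against parental RT4 both were lower, MRPL46 by -0.76 (limma adjusted p = 0.00345) and MRPS11 by -0.69 (adjusted p = 0.00736). In R3 in drug against parental RT112 the differences were 0.51 (adjusted p = 0.0243) and 0.48 (adjusted p = 0.0352), in R2 out of drug 0.64 (adjusted p = 0.00757) and 0.45 (adjusted p = 0.0345), and in R1 in drug -0.52 (adjusted p = 0.106) and -0.62 (adjusted p = 0.0268). After 24 h of drug in parental RT112 they were 0.18 (adjusted p = 0.120) for MRPL46 and -0.07 (adjusted p = 0.537) for MRPS11. Whether values of this pair are closer than those of other members was not tested.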
